A study of Mus musculus with 4 samples.

Results

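Regions of open chromatin that set naive T helper cells apart from 3 antigen-experienced populations numbered 1418 of the 52537 merged regions of the series, or 2.7%. They were selected on the deposited comparisons themselves: a region qualified when the authors listed it as differential between naive cells and Th2 cells, between naive cells and Treg cells, and between naive cells and other effector cells, and listed it in none of the 3 comparisons among Th2, Treg and other effector cells. Rows of the 6 tables were joined where they overlapped by at least 1 bp, and the 3 rows of each of the 1418 regions had the same start and end. Because this choice used the folds against the other populations, those folds describe the regions and support nothing further.

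Accessibility was measured by ATAC-seq, in which the Tn5 transposase cuts and tags open chromatin. All mice were sensitized and challenged intranasally with house dust mite extract, a model of allergic asthma. Naive T helper cells were sorted as CD44 low cells from the mediastinal lymph node, whereas Th2 cells (CD44+ ST2+ CD30L+), Treg cells (CD25 high, CD30L-) and other effector cells (non-Th2 memory cells, CD44+ ST2- CD30L+) came from the lung with its airways. The labels give 3 biological replicates of 1000 cells for each population at day 15, although the descriptions of naive and other effector cells carry another day, and lung is the source given for the naive sample. Naive cells thus differed from the other populations in tissue as well as in state, and the parts of tissue and state in any difference cannot be told apart. CD44 was used in the sort.

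Each table holds positions and 1 fold per region, read as log2 of the first-named over the second-named population. No counts, replicate values or p-values were analysed here, so the depth is unknown, no spread between replicates can be given and no test over samples can be made. The shares below carry exact 95% binomial intervals, which cover counting error only, since regions of 1 locus are not independent. In bulk samples such as these, more cells with an open region and a more open region in each cell cannot be told apart. The tables of other effector cells stand apart: they hold 17700 regions higher in naive, 28175 higher in Th2 and 24765 higher in Treg cells, and 0 regions higher in other effector cells. Whether the libraries differed that far or the tables were filtered by direction is not stated in the sources used here. Without those tables, 1422 regions were higher in naive than in both Th2 and Treg cells and differed between neither of those, and 1418 of them were the regions described here, with the same median folds of 5.56 and 5.48.

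Naive T helper cells circulate through lymph nodes in a resting state until they meet antigen. The transcription factors TCF1 and LEF1 keep them naive, BACH2 and FOXP1 restrain their differentiation, CCR7 brings them into the lymph node, and anti-apoptotic proteins such as BCL2 keep them alive without division. Much of this gene activity is controlled by enhancers, stretches of DNA away from the gene start that open and close as a cell changes its state.

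Few of the regions lay at gene starts. Of the 1375 on a chromosome with start windows, 34 (2.47%, interval 1.72 to 3.44) overlapped a window from 250 bases before to 50 bases after a start in the RefSeq annotation of GRCm38.p6, against 17.8% of all merged regions. Of these, 21 lay at a protein-coding gene. The sequences of 5 such windows are shown, up to the base before the start and as far as each lies inside its region, because these are the stretches of the regions whose bases are on file; they were picked after their values were seen, 4 for protein-coding genes and the fifth, Gm11695, for its high folds. Capitals mark matches, on either strand, to short motifs of T cell transcription factors. Zbtb7b encodes ThPOK, the factor that commits thymocytes to the CD4 lineage, and its stretch is the minus strand of chr3:89387672-89387791. P2rx7 encodes an ATP-gated ion channel, shown from the plus strand of chr5:122650133-122650382. Ldhb encodes a subunit of lactate dehydrogenase, shown from the minus strand of chr6:142507958-142508207. Exph5 encodes an effector of the small GTPase RAB27B, shown from the plus strand of chr9:53301420-53301669. Gm11695 is a gene that the annotation does not class as protein-coding, shown from the minus strand of chr11:115463699-115463948.
Zbtb7b: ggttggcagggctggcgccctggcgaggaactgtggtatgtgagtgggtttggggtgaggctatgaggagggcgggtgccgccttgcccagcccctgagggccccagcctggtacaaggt
P2rx7: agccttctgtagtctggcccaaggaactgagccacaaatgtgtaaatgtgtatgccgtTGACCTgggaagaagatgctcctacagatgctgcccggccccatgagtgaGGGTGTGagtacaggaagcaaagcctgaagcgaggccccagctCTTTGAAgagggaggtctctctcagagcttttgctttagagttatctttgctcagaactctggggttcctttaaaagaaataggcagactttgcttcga
Ldhb: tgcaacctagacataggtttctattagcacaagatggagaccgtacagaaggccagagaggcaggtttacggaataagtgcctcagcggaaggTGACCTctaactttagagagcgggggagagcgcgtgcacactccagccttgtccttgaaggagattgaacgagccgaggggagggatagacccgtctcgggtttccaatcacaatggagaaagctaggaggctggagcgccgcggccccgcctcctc
Exph5: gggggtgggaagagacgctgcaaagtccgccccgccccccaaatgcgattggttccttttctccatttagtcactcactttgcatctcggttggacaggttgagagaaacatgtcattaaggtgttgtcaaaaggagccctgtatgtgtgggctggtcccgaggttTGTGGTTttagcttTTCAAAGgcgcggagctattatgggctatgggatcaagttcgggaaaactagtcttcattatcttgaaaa
Gm11695: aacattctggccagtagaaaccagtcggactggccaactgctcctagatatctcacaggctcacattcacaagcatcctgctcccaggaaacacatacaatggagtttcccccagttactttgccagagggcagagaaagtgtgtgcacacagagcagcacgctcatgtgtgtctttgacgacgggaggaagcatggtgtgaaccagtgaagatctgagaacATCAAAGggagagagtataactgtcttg

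Among the regions behind these sequences, the one at the Zbtb7b start had folds of 7.05 over Th2, 6.87 over Treg and 6.87 over other effector cells in the authors' deposited tables. That at P2rx7 had 6.91, 5.84 and 6.73 in the same order, and that at Ldhb had 5.84, 7.70 and 7.70. At Ldhb the smallest fold was over Th2 cells, although the authors listed no difference among the other populations there. The Exph5 region had 5.83, 5.65 and 5.65, and the Gm11695 region had 8.34, 8.16 and 8.16, so at both of them the other populations stood close together.

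Motif letters were counted on both strands of the 33 windows that lay in a region by at least 150 bases, beside all 32851 start windows. The TCF/LEF letters CTTTGAT were present in 5 windows (15.2%), against 3.73% of all windows. However, 4 of those 5 are windows of Gm11695 that overlap each other and share 1 match, so the 5 windows belong to 2 genes, the other being A730085K08Rik. The second TCF/LEF form CTTTGAA was present in 6.06%, against 5.14% of all windows. The E protein letters CAGCTG were present in 27.3% against 16.3%, the RUNX letters TGTGGTT in 12.1% against 5.27%, and the FOX letters TGTTTAC in 9.09% against 3.65%. The shares were close for the ETS letters ACTTCCT, found in 9.09% against 9.35%, the AP-1 letters TGANTCA, found in 6.06% against 7.81%, the KLF letters GGGTGTG, found in 6.06% against 7.95%, and the GATA letters AGATAAG, found in 3.03% against 3.04%. The ROR letters AGGTCA were found in 9.09% against 16.3%. BACH/MAF, NF-kB and CTCF motifs had 0 matches in the 33 windows, against 0.155%, 0.411% and 1.15% of all windows, and the IRF motif was in 3.03% against 3.44%. A match is a description of the letters and not a bound site, and with 33 windows each match moves a share by about 3.03 percentage points.

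All 1418 regions were more open in naive cells than in each of the other populations. A region less open in naive cells than in all of them could not occur, since the table against other effector cells lists 0 regions lower in naive cells. For comparison, 9.21% of all merged regions were listed as higher in naive cells against Th2 cells, 5.76% against Treg cells and 33.7% against other effector cells, and the rule used these very calls. A further 2692 regions had naive cells above Th2 and other effector cells only, 1325 above Treg and other effector cells only, and 6472 above other effector cells only. Just outside the rule lay 4 regions with all 3 naive rows and a row in a further table. They were assigned to Sp100 (8.91, 7.84 and 8.72 over Th2, Treg and other effector cells), Il9r (6.76, 6.21 and 6.57), Rflna (6.38, 6.73 and 8.34) and Tgfbr2 (5.86, 7.68 and 7.67) in the authors' deposited tables. Just inside, the smallest folds over Th2 cells were 3.63 at Atp10a and 3.65 at both Il23r and Insyn2b.

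The folds were large. In the authors' deposited tables, the median fold of the 1418 regions was 5.56 over Th2 cells (quartiles 4.86 and 6.63, range 3.63 to 9.95), which is a ratio of 47.2. Over Treg cells it was 5.48 (quartiles 4.82 and 6.43, range 3.79 to 9.77), and over other effector cells 6.14 (quartiles 5.23 and 7.15, range 3.95 to 9.76). All other regions listed as higher in naive cells in the same tables had medians of 5.16, 5.17 and 5.34 over Th2, Treg and other effector cells. The median over other effector cells was the largest of the 3. However, at 838 of the 1418 regions the fold over Th2 cells slightly exceeded that over other effector cells. These folds were used by the rule and establish no order of the populations. The 3 tables share the naive libraries, so their folds are given side by side and no relation between them was computed.

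**Figure D1:**
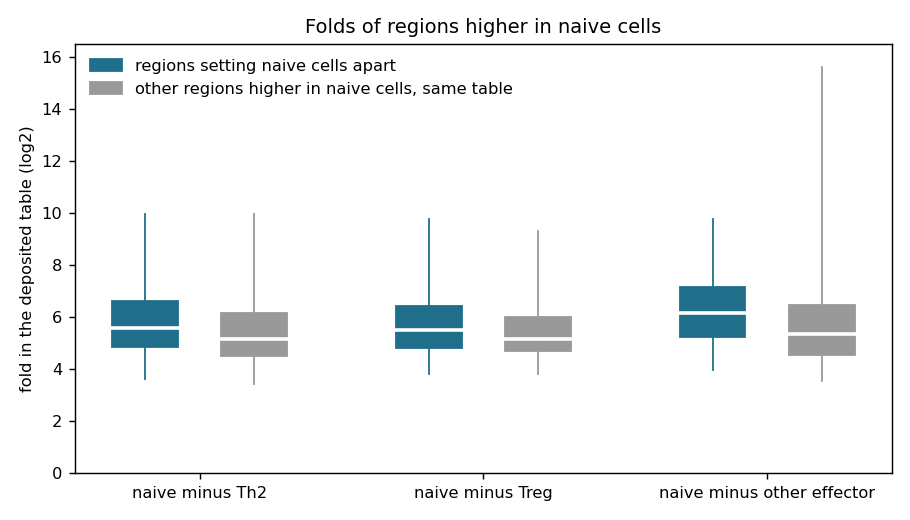
Boxes give quartiles, white lines medians and whiskers the full range of the log2 fold in the authors' deposited tables, for the 1418 regions and for the other regions listed as higher in naive cells in the same table. The medians of the 1418 are 5.56 over Th2, 5.48 over Treg and 6.14 over other effector cells, against 5.16, 5.17 and 5.34 for the other regions.

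Subtracting 2 folds of the same region cancels the naive level and places the other populations relative to each other, at regions the authors listed in none of the 3 tables that compare them. Th2 minus other effector was -0.19 or -0.18 on the log2 scale at 838 regions (59.1%), and the next value was 0.20. Th2 cells lay above this lowest step at 580 regions (40.9%), by 1.22 at the median and 3.56 at most. Treg minus other effector was -0.01 or 0.00 at 888 regions (62.6%), the next value was 0.35, and Treg cells lay above at 530 (37.4%), with a median of 1.30 and a maximum of 3.88. Other effector cells were never above the other populations by more than these steps. The authors listed none of these differences, and their spread between replicates is unknown. Here and below they describe the folds only and establish no order of the populations. The steps are not particular to the 1418 regions. Of 3417 other regions listed for naive cells against both Th2 and other effector cells, 60.8% stood at the lowest step. Of 1607 listed against both Treg and other effector cells, 67.4% did. The lowest values there were also -0.19 and -0.01.

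By these steps the 1418 regions fell into 4 kinds. At 587 (41.4%, interval 38.8 to 44.0) neither Th2 nor Treg cells were above the lowest step, so Th2 minus other effector was -0.19 or -0.18 and Treg minus other effector -0.01 or 0.00 at each of them. At 301 (21.2%) only Th2 cells were above, at 251 (17.7%) only Treg cells, and at 279 (19.7%) both. Of the last, Th2 cells were the higher of the pair at 137 and Treg cells at 141. The corresponding share with the remaining populations all at the lowest step was 51.2% (48.4 to 54.0) of the 1257 regions that set Th2 cells apart by the same rule, and 58.1% (54.2 to 62.0) of the 635 that set Treg cells apart. These shares come from the folds that the rule used and depend on which comparisons it took. They describe each set, and no difference between the sets was tested. The tables hold no counts, so whether the populations at the lowest step had any reads there was not tested, and a fold over such a population may depend on the minimum level that the authors' tool assigns.

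**Figure D2:**
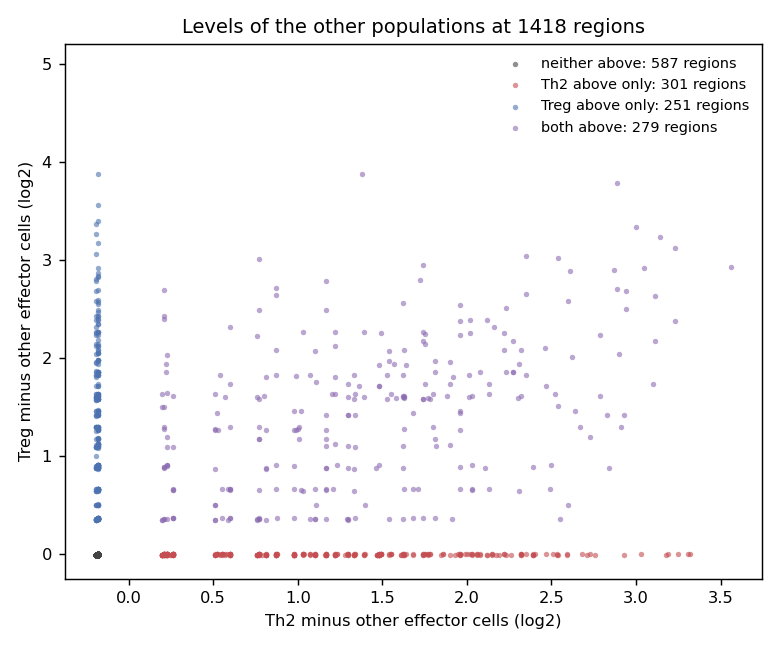
Each point is 1 of the 1418 regions. The x axis gives Th2 minus other effector cells and the y axis Treg minus other effector cells, both log2. Each was obtained by subtracting the fold of naive over Th2 or Treg cells from that of naive over other effector cells. The 587 regions with neither population above lie on a single spot at the lower left, while 301 lie on the lower edge, 251 on the left edge and 279 in between.

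The regions lay far from gene ends. Only 55 of 1417 (3.88%, interval 2.94 to 5.02) had their midpoint within 1 kb of either end of a protein-coding gene, against 21.9% of all merged regions. The same share was 9.95% (8.35 to 11.7) of the regions setting Th2 cells apart, 4.89% (3.35 to 6.87) of those setting Treg cells apart and 26.5% (24.5 to 28.5) of the 1845 that set other effector cells apart. Those 1845 were all less open in other effector cells, so they run opposite to the naive regions. The interval of the naive regions thus overlapped that of the Treg regions and lay below those of the Th2 and other effector regions. The median distance to a gene end was 25700 bp, against 10600 bp for all merged regions, and 73.1% lay over 10 kb away, against 51.2%. Position was not used by the rule. Of the regions on a chromosome with start sites in the sequence table, 46 of 1375 (3.35%, interval 2.46 to 4.44) lay within 1 kb of a start, against 21.7% of all merged regions. The sequence table holds start sites for 17491 of the 21775 protein-coding genes, so some starts were not counted in any of the sets. Of those 17491 genes, 10582 (60.5%) have a start at the gene end that their strand gives.

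**Figure D3:**
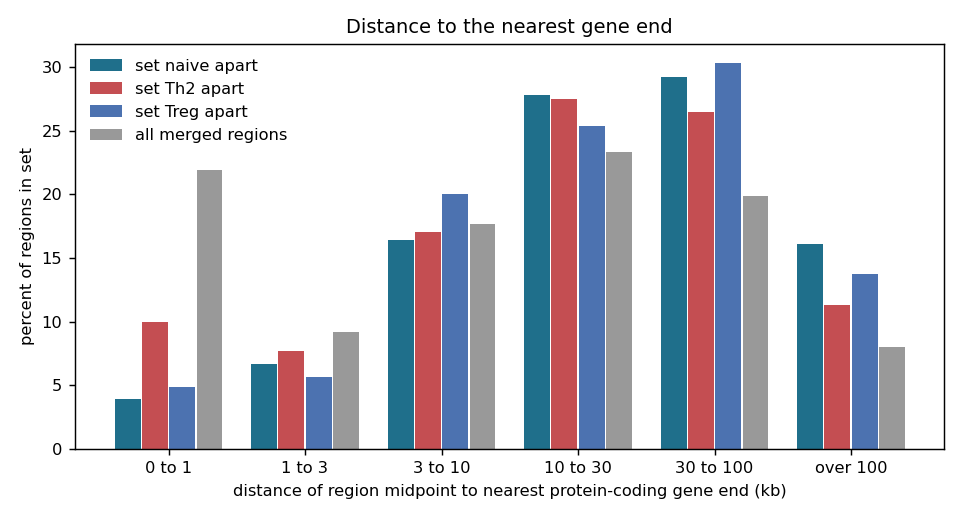
Bars give the percent of regions in each set by the distance in kb of the midpoint to the nearest end of a protein-coding gene. The regions setting naive cells apart hold 3.88% within 1 kb and 16.1% over 100 kb, against 21.9% and 7.98% of all merged regions.

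By contrast, 823 of the regions (58.1%) had their midpoint inside a protein-coding gene, close to the 60.2% of all merged regions. Exons and introns were not told apart here. The regions were 614 bp wide at the median (quartiles 427 and 797), against 497 bp for all merged regions, 431 bp for the Th2 set and 543 bp for the Treg set. The other effector set, whose regions were less open in those cells, had 778 bp. The 5 widest were assigned to Dcp2, an mRNA decapping enzyme, Crim1, Kcna2, a potassium channel, Iqce and Satb1. The regions made up between 1.55% of the merged regions of chromosome 19 and 3.36% of those of chromosome 5, leaving aside chromosome Y with 0 of 7. While 783 (55.3%) lay alone, 634 (44.7%) lay within 100 kb of another, and 30 chains held 4 or more.

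Regions were given to the protein-coding gene around their midpoint or, failing that, to the closest one within 100 kb, which names a neighbour and not a target. In this way 1269 regions were assigned to 975 genes, 7.03% of the 13868 genes with any merged region, and 149 had no gene within 100 kb. Most genes, 777, had a single region, and 20 had 4 or more. Tgfbr3 led with 10, followed by Lef1 with 8, Slc4a4 with 7 and Adamts20 with 6. Bach2, Bcl2, Chl1, Cox10, Eipr1 and Myo10 had 5 each, and Btg1, Ccr7, Cers6, Cfap20dc, Gm1966, Pip4k2a, Rere, St6gal1, Stim2 and Tcf7 had 4 each. The regions of 1 gene share a locus and are not independent of each other.

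**Figure D4:**
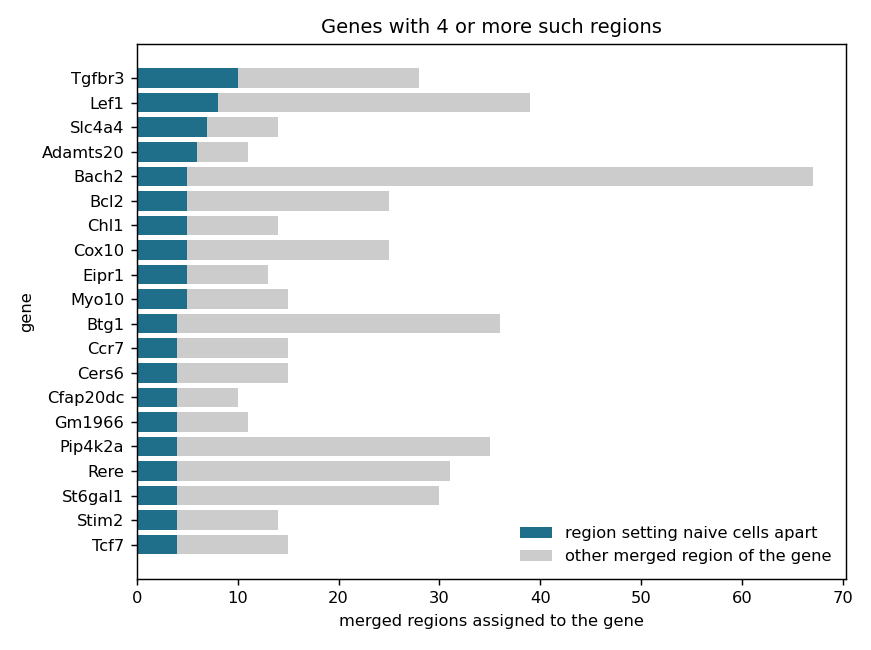
Bars give the number of merged regions assigned to each of the 20 genes with 4 or more regions that set naive cells apart; the dark part counts those regions. Tgfbr3 holds 10 of 28 and Slc4a4 7 of 14, whereas Bach2 holds 5 of 67.

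The gene lists below were drawn up for naive T cells and for cells that could be mixed with them. The transcription factors of naive cells had 25 of their 444 merged regions among the 1418 (5.63%, against 2.7% of all merged regions). These 25 had median folds of 5.23, 5.26 and 6.66 over Th2, Treg and other effector cells in the authors' deposited tables, against 5.56, 5.48 and 6.14 for all 1418. They lay at 8 of 16 genes, against 7.03% of all genes with a merged region. Such counts of genes, here and below, depend on the number of merged regions per gene and were not adjusted for it. That number varied widely on this list, for example 6 at Klf2 and 86 at Foxp1. Among genes set as markers of naive T helper cells, Ccr7, Lef1 and Tcf7 had regions in the set, whereas Klf2, S1pr1 and Il7r had 0. Counting every merged region of the list, naive cells were above Th2 cells at 28.4% of the list's merged regions, above Treg cells at 10.8% and above other effector cells at 62.8%, against 9.21%, 5.76% and 33.7% of all merged regions. These shares are not particular to the list: that of CD8 and natural killer genes had 38.2%, 29.4% and 76.5%.

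Tcf7 encodes TCF1, the high mobility group factor that with LEF1 maintains the naive state. None of its 4 regions lay in the gene: all were upstream, between 26.3 and 35.3 kb from its 5′ end. The one at chr11:52313875-52314897 had the largest fold of all 1418 over Th2 cells, 9.95, with 9.77 over Treg and 9.76 over other effector cells in the authors' deposited tables. Here Th2, Treg and other effector cells all stood at the lowest step. At chr11:52318428-52318871 the folds were 7.47, 7.29 and 7.28, again with no population above the step. The region at chr11:52309499-52309791 had 4.87, 7.46 and 7.46, so that Th2 cells stood 2.59 above other effector cells there. At chr11:52310878-52311091 the folds were 6.04, 4.69 and 6.30, with Treg cells 1.61 above other effector cells. The population with the smallest fold thus varied between neighbouring regions upstream of Tcf7. The authors listed no difference among Th2, Treg and other effector cells at these regions. A chain of 7 regions spanned this stretch, in which the nearest genes were Tcf7 and Vdac1.

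Lef1 encodes LEF1, the partner of TCF1, and its 8 regions all lay inside the gene, from 15.7 to 104 kb downstream of its 5′ end. The highest folds were at chr3:131157269-131158150, with 8.44, 8.26 and 8.26 over Th2, Treg and other effector cells in the authors' deposited tables. Next came chr3:131167582-131168255 with 7.39, 7.21 and 7.21. At both, the other populations stood at the lowest step. The smallest folds over Th2 and Treg cells were at chr3:131138082-131138508, with 4.31 over Th2, 4.01 over Treg and 6.66 over other effector cells, where Th2 and Treg cells lay 2.35 and 2.65 above other effector cells. Of the 8 regions, 4 had neither population above the step. Of all 39 merged regions of Lef1, naive cells were above Th2 cells at 19, above Treg cells at 10 and above other effector cells at 32, and were below Th2 or Treg cells at 0.

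Bach2 encodes a repressor that limits effector differentiation. Its 5 regions lay inside the gene, 90.3 to 322 kb from its 5′ end, and at none of them were Th2 and Treg cells both at the lowest step. Folds were highest at chr4:32560268-32561211, with 8.27, 8.50 and 8.50 over Th2, Treg and other effector cells in the authors' deposited tables. At chr4:32364377-32365789 they were 5.23, 6.76 and 7.96, which places Th2 cells 2.73 and Treg cells 1.20 above other effector cells. Satb1 encodes a chromatin organizer of T cells and had 2 regions. The one 46.6 kb upstream, at chr17:51879015-51880707, was among the widest with 1693 bp and had folds of 9.37, 9.19 and 9.19. The other, inside the gene at chr17:51789014-51789677, had 7.38, 5.62 and 7.20, with Treg cells the least distant.

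**Figure D5:**
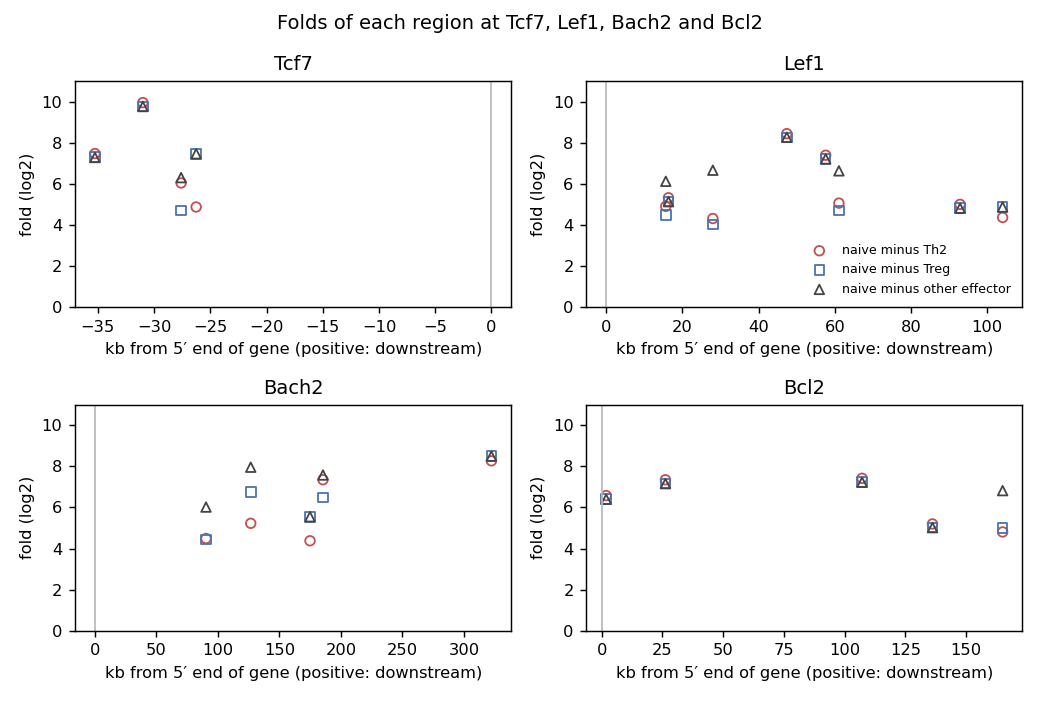
Each symbol is the log2 fold of 1 region in 1 of the authors' deposited tables, by its distance in kb from the 5′ end of Tcf7, Lef1, Bach2 or Bcl2, with the end marked by a grey line. The 4 regions of Tcf7 lie upstream and reach 9.95, whereas those of Lef1, Bach2 and Bcl2 lie inside the genes.

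The remaining factors had fewer regions. Foxp1, a forkhead factor of quiescence, had 2 of 86 merged regions, both inside the gene, with folds over Th2 cells of 4.63 and 6.23 in the authors' deposited tables. Ikzf1, which encodes the zinc finger factor IKAROS, had 2, with folds over Th2 cells of 6.26 and 4.05. Foxo1, which drives expression of homing and survival genes, had 1, located 97414 bp from the gene, with 5.22, 3.96 and 5.04 over Th2, Treg and other effector cells. Id3, an inhibitor of E proteins, had 1 with 4.79, 4.61 and 4.61. Klf2, which controls exit from lymphoid organs, had 0 of its 6 merged regions in the set, although naive cells were above other effector cells at 5 of them.

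Among genes of homing and trafficking, 7 of 113 merged regions belonged to the set (6.19%, against 2.7% of all). These lay at 4 of 11 genes, against 7.03% of all genes with a merged region. Ccr7 encodes the chemokine receptor for lymph node entry, and its 4 regions all lay outside the gene, from 384 to 19925 bp from its nearer end. The nearest, at chr11:99143508-99144122, had folds of 7.36, 7.19 and 7.18 over Th2, Treg and other effector cells in the authors' deposited tables. At chr11:99136387-99137070 the folds were 6.16, 8.40 and 8.39, so Th2 cells stood 2.23 above other effector cells, while at chr11:99142831-99143148 they were 6.09, 4.30 and 5.90, with Treg cells 1.60 above. The smallest fold was thus over Th2 cells at the first of these and over Treg cells at the second. At neither did the authors list a difference among Th2, Treg and other effector cells. Cxcr4, the receptor for CXCL12, had 1 region with 6.39, 7.70 and 8.07, and Itga6, an integrin subunit, had 1 with 4.66, 6.76 and 7.26. S1pr1, which guides exit from lymph nodes, had 0 of 23.

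The cytokine and TGF-beta receptors had 11 of 166 merged regions in the set (6.63%, against 2.7% of all), 10 of them at Tgfbr3. These lay at 2 of 14 genes, against 7.03% of all genes with a merged region. Tgfbr3 encodes betaglycan, a co-receptor that presents TGF-beta to its signalling receptors. The Tgfbr3 regions spread over 8 positions inside and 2 outside the gene, with median folds of 5.29, 5.46 and 5.66 over Th2, Treg and other effector cells in the authors' deposited tables. The highest folds inside were at chr5:107177158-107178205, with 7.15, 6.98 and 6.97, where all other populations stood at the lowest step. Outside, at chr5:107078408-107078991, the folds were 7.87, 5.43 and 7.68, with Treg cells 2.25 above other effector cells. Th2 cells alone were above at 3 regions, Treg cells alone at 2 and neither at 5. Of the 28 merged regions of the gene, naive cells were above Th2 cells at 24, above Treg cells at 11 and above other effector cells at 27. With Brdt, the locus formed the longest chain, 11 regions over 289369 bp. Tgfbr2, a signalling receptor for TGF-beta, had 1 region with 7.33, 7.15 and 7.15, beside the one just outside the rule. Il7r and Il6ra, receptors for survival and for inflammatory signals, had 0 of 6 and 0 of 12.

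Genes of quiescence and survival had 10 of 137 merged regions in the set (7.30%, against 2.7% of all). These lay at 3 of 13 genes, against 7.03% of all genes with a merged region. Bcl2, the anti-apoptotic protein of resting T cells, had 5, all inside the gene from 1.83 to 165 kb downstream of its 5′ end. At 4 of these the other populations stood at the lowest step, with the highest folds at chr1:106606892-106607403, namely 7.42, 7.24 and 7.23 over Th2, Treg and other effector cells in the authors' deposited tables. The exception, at chr1:106549018-106549579, had 4.81, 4.99 and 6.82, and Th2 and Treg cells were 2.01 and 1.83 above other effector cells. Btg1 and Btg2, anti-proliferative proteins that promote turnover of messenger RNA, had 4 regions and 1. The region 7039 bp from Btg1, at chr10:96609315-96610610, had 7.60, 7.81 and 7.81, the highest of the 4, and that of Btg2 had 6.24, 6.06 and 6.06.

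T cell receptor signalling genes had 8 of 222 merged regions (3.60%) in the set, at 5 of 19 genes with a merged region, a share closer to the 2.7% of all. Prkcq, the kinase PKC-theta of the immune synapse, had 3. At chr2:11159675-11160209 the folds were 8.24, 8.06 and 8.05 over Th2, Treg and other effector cells in the authors' deposited tables, whereas at chr2:11338715-11339860, 38061 bp from a gene end, they were 7.13, 8.62 and 8.62 with Th2 cells 1.49 above other effector cells. Cd247, the zeta chain of the receptor complex, had 2 with folds over Th2 cells of 5.38 and 6.04. Cd28, the main costimulatory receptor, had 1 with 6.53, 7.05 and 7.05, and Fyn, a Src family kinase, had 1 with 6.39, 6.21 and 6.20. Inpp4b, a phosphoinositide phosphatase, had 1 with 6.18, 4.06 and 6.0.

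Genes of the Th2, Treg and activated states held few of the regions, whereas the Th1 and Th17 list stood near the 2.7% of all merged regions. The Th2 list had 1 of 167 merged regions (0.599%), at Il9r, the interleukin 9 receptor, with 8.17, 8.0 and 7.99 over Th2, Treg and other effector cells in the authors' deposited tables; it lay 61329 bp from the gene. The Treg list had 0 of 210, the list of activation and tissue genes had 1 of 181 (0.552%, at Nr4a3) and the Th1 and Th17 list 3 of 116 (2.59%). Il4, Il13, Gata3, Foxp3, Ikzf2, Ctla4 and Ifng, the signature cytokine, factor and receptor genes of these states, had 0. The rule leaves out any region that differs among Th2, Treg and other effector cells, which limits the share that such lists can reach. The 3 regions of the Th1 and Th17 list lay at Il23r and Il12rb2, receptor genes beside each other on chromosome 6. Il12rb2 had folds of 7.78, 7.60 and 7.60.

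Several genes with many regions are on none of the lists. Slc4a4, a sodium bicarbonate cotransporter, had 7 of its 14 merged regions in the set, all inside the gene, with median folds of 5.49, 5.63 and 6.69 over Th2, Treg and other effector cells in the authors' deposited tables. Adamts20, a secreted metalloprotease, had 6 of 11, of which 1 lay inside the gene and 4 had all other populations at the lowest step. Eipr1, which takes part in endosomal recycling, had 5, including chr12:28833961-28834837 with 9.08, 5.52 and 8.89, where Treg cells stood 3.37 above other effector cells. Cers6, a ceramide synthase, had a similar region at chr2:68959595-68960553 with 8.51, 5.41 and 8.33. Stim2, a calcium sensor of the endoplasmic reticulum, had 4, from 3.97 over Th2 cells at chr5:54026172-54026433 to 7.91 at chr5:54101010-54102237. Pip4k2a, a phosphoinositide kinase, had 4 with folds over Th2 cells of 4.97 to 6.60, and St6gal1, a sialyltransferase, had 4 with 4.59 to 5.78. Rere, a corepressor, had 4 with 5.22 to 7.03, Cox10, an enzyme of heme A synthesis, had 5 with 5.43 to 6.71, and Myo10, an unconventional myosin, had 5 with 4.99 to 7.11. Gm1966 and Cfap20dc had 4 each, with folds over Th2 cells from 3.79 to 5.41 and from 4.05 to 6.0.

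The 6 regions whose smallest fold was the largest had at least 8.60 in every table. Besides those upstream of Tcf7 and Satb1, they were assigned to Irf2bp2, a corepressor that binds IRF2, with 8.90, 8.72 and 8.71 over Th2, Treg and other effector cells in the authors' deposited tables. Gm7244 followed with 8.85, 8.67 and 8.66, Dip2b with 8.82, 8.64 and 8.64, and Gtf2i, a general transcription factor, with 8.60, 8.82 and 8.81. At 5 of the 6 the other populations stood at the lowest step, the exception being Gtf2i, where Th2 cells were 0.21 above other effector cells.

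Markers of other cells were looked up because naive cells came from another organ. Of the merged regions at genes of CD8 and natural killer cells, 5 of 34 were in the set (14.7%, against 2.7% of all). They lay at 4 of 10 genes: Klrk1 with 2 and Klrd1, Cd8b1 and Eomes with 1 each. The region assigned to Eomes lay 81655 bp from the gene. Folds of the 5 regions over Th2 cells ran from 3.70 to 7.72 in the authors' deposited tables. Cd8a, Prf1, Gzmb, Gzmk, Nkg7 and Crtam, the remaining genes of this list with merged regions, had 0 in the set. Klrk1 and Klrd1 encode receptors of the natural killer gene complex, Cd8b1 a chain of CD8, and Eomes a T-box factor of cytotoxic cells. The B cell list had 2 of 34 (5.88%), at Ebf1 and Bank1, with folds over Th2 cells of 4.29 and 4.35; its defining markers Ms4a1, Pax5, Cd79a and Cd79b had 0. Naive cells were above other effector cells at 73.5% of those 34 merged regions, against 33.7% of all. The immunoglobulin heavy chain locus held 12 regions of the set among 61 merged regions (19.7%), of which 11 overlapped a gene segment, with median folds of 5.87, 5.82 and 5.82 over Th2, Treg and other effector cells. The myeloid list had 0 of 39 and the housekeeping list 0 of 29. The thymocyte list had 2 of 56, both at Sox4. The part of other cells in these regions was not tested.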

How the data were processed

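ATAC-seq was made from 4 sorted T helper populations, each 1 deposited sample that the labels describe as 3 biological replicates. The deposited values are a log2 fold per region in 6 tables, which the authors made with DiffBind, per the submitters' processing notes. The scale is that on which the tool reports folds, and the sign, first-named minus second-named population, was read from genes of naive cells, so their direction is no independent evidence. The notes name mm9, but the sequence names and gene positions in the tables are of GRCm38 type, and coordinates are given 1-based as GRCm38. Aligner, caller of peaks, shift of reads, threshold, normalization and tool versions were not given in the sources used here. Rows were joined where they overlapped by at least 1 bp, and positions were set beside RefSeq genes and start windows of GRCm38.p6 with Python 3.11.15, pandas 2.3.3, numpy 2.4.6 and scipy 1.17.1. Figures were drawn with matplotlib 3.10.9. The steps were tested on simulated data. All 194 genes of the 14 lists matched. Start windows for chromosome 18 were not used here.

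The rule, regions, gene lists and named genes were chosen with earlier results of these data known. The genes always named were drawn from naive and antigen-experienced cells, and some items are not reported here. To them were added the 12 genes with most regions (20 with ties), list genes with 2 or more, the 6 regions with the largest smallest fold and the 5 widest. List genes with 1 region, the genes of the printed sequences and the smallest folds were named after their values were seen. Alternatives changed how rows were joined, which rows and tables were used, and the distances.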

Additional observations from a re-analysis of the deposited data

How the results depend on the processing

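Each count was held to 1.5 times the reported count, and each median or share to its 95% interval. By that measure 26 of 39 recomputed values stayed close to those reported, 13 moved and 0 changed direction. Dropping rows under the lower quartile of absolute fold in their table, which removes rows by construction, left 901 regions with median folds of 6.17 over Th2, 6.02 over Treg and 6.68 over other effector cells. Without the 3 tables of other effector cells there were 2799 regions, with 1888 genes, 72 list genes, 6.65% within 1 kb of a gene end and 7.36% within 1 kb of a start. These include 1377 regions lower in naive cells, which the full rule could not admit. The medians over all 2799, 3.88 for Th2 and 4.01 for Treg cells, therefore mix folds of both signs. The 1422 regions higher in naive cells had medians of 5.56 and 5.48. With 5 kb in place of 1 kb, 16.1% lay near a gene end and 12.9% near a start. Joining rows only where the overlap covered at least 50% of the shorter row, or across gaps of up to 100 bp, left each recomputed value within those bounds. Counts that stayed within 1.5 times still fell: dropping the low rows left 672 genes, 25 list genes and 442 regions at the lowest step, against 975, 33 and 587, and assigning regions within 10 kb left 768 genes and 26 list genes. The start-site and lowest-step alternatives were chosen after seeing the data. No paired analysis was possible because the tables hold no replicate values, and leaving out replicates could not be done either. The motif alternatives were not run, since no genome was used here. The tables hold no counts, so the depth behind each fold is unknown.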

Other observations

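The T cell receptor alpha and delta locus held 6 of the regions among its 63 merged regions (9.52%, against 2.7% of all). At all 6, Th2, Treg and other effector cells stood at the lowest step, and the median folds were 4.99, 4.81 and 4.80 over those populations in the authors' deposited tables. They lay at the variable segments Trav1, Trav14d-3-dv8, Trav6n-6, Trav14-1 and Trdv2-1 and at 32600 bp from Trdv4. The beta locus held 1 region of 25 (4.0%), near Trbv27, and the gamma and immunoglobulin kappa loci held 0 of 1 and 0 of 5. Segments of these loci resemble each other, so reads may be shared between them, and this was not tested.

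Adjacent regions at Chl1, a neural cell adhesion molecule, differed in the population over which the fold was smallest. The region at chr6:103510763-103511780 had folds of 7.19 over Th2, 5.30 over Treg and 7.01 over other effector cells in the authors' deposited tables, while its neighbour at chr6:103511799-103512584 had 5.68, 7.81 and 7.80. Treg cells were thus 1.71 above other effector cells at the one and Th2 cells 2.12 above at the other. These regions were picked after their values were seen, and the authors listed no difference among Th2, Treg and other effector cells there.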
